A study of Homo sapiens with 24 samples.

Results

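The mitotic kinesins KIF11, KIF14, KIF15, KIF18A, KIF18B, KIF20A, KIF20B, KIF23, KIF2C and KIF4A were examined by RNASeq in MDA686TU cells, an established malignant line of human head and neck squamous cell carcinoma. The genes were found by matching these symbols to the Ensembl identifiers of the count table, which gave 10 of its 60617 genes, and all 10 passed the filter on low counts. The experiment asked what epigallocatechin gallate (EGCG, a catechin of green tea) and resveratrol (a polyphenol of grapes) do to gene expression alone and together. Cells were left untreated (control), or received EGCG at 40 µM, resveratrol at 15 µM, or both agents at these doses (combination), each for 24 h and with 6 libraries a group. The resveratrol stock was made in DMSO and EGCG was given in water, and whether the control cells received DMSO is not given in the sources used here, so resveratrol and this solvent cannot be told apart. The libraries of a group carry replicate numbers from 1 to 6, and where these were not separate cultures the p-values measure a spread that is in part technical.

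Kinesins are motor proteins that use ATP to move along microtubules or to shorten their ends. The mitotic members build the bipolar spindle, align chromosomes, shape the midzone of the anaphase spindle and help to complete cytokinesis, and most of their genes are transcribed chiefly in G2 and M phase. In proliferating cells that transcription is known to run through promoter elements bound by the DREAM, MMB and NF-Y complexes, of which the cell cycle genes homology region (CHR) and the CCAAT box are the best described.

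The promoters are shown first, as the sequences that set the members side by side. RefSeq promoters of build GRCh38.p14, from 250 bases before to 50 bases after the transcript start, were matched for 10 of 10 members and searched on both strands for the CHR core (TTTGAA or TTCGAA) and for CCAAT, which reads ATTGG on the other strand. The 120 bases before the start are printed for KIF20A (chr5:138178992-138179111), the member with the largest change between combination and control, KIF23 (chr15:69414229-69414348), the next largest, KIF2C (chr1:44739717-44739836), the smallest in that comparison, and KIF20B (chr10:89701470-89701589), a family member of KIF20A and KIF23 with no called change under resveratrol. All 4 lie on the plus strand, and capitals mark the matches. The stretch of KIF20A lies inside the gene as placed by GENCODE (start 138178719). Those of KIF23 and KIF2C do so in part (starts 69414246 and 44739818). Motif positions are counted from the RefSeq start and depend on it.
KIF20A: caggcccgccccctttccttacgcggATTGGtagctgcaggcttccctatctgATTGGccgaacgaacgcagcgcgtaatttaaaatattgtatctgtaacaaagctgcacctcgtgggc
KIF23: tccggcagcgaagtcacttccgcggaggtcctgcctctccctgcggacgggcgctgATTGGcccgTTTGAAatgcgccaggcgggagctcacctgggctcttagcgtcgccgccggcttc
KIF2C: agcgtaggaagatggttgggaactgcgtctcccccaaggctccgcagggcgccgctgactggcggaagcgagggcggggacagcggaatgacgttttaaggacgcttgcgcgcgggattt
KIF20B: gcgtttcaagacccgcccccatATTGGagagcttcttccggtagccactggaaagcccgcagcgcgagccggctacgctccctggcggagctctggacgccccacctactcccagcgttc

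A CHR core was present in 8 of 10 promoters, against 16.4% of all 35116 promoters of this length, and CCAAT was present in 8 of 10, against 34.6%. Both occurred together in 7 of 10, against 6.38%. The KIF20A promoter held 2 CCAAT boxes, starting at positions −94 and −67 from the start, and no CHR core in this window. The KIF23 promoter held 1 of each, with the CCAAT box at −64 and the CHR core at −55, and the KIF2C promoter held neither. In KIF20B both CHR cores lay after the start, from position 24 to 35, and 1 of its 2 CCAAT boxes began at −131, before the printed stretch. These are matches of letters, and binding was not measured.

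**Figure D1:**
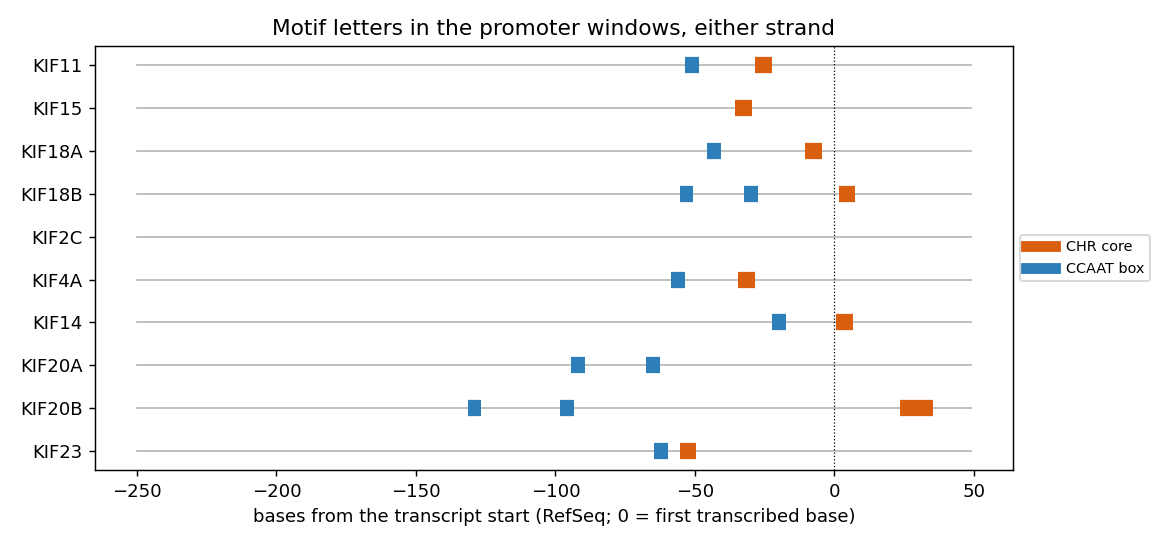
Positions of CHR core and CCAAT letters on either strand in the promoter windows of the 10 members, in bases from the transcript start (x axis), 1 row a gene. CHR cores are present in 8 of 10 rows and CCAAT boxes in 8 of 10, and the row of KIF2C holds neither.

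The libraries held 7034872 to 11735574 counts. Squamous markers were present throughout, with KRT5, KRT6A, KRT14 and KRT17 between 633 and 1737 FPKM and TP63, CDH1, EPCAM and DSG3 between 22.1 and 98.1 FPKM in all 24 libraries. Of the 8 markers of leukocytes, endothelium and fibroblasts, PTPRC, CD3E, CD14 and PECAM1 had a median of 0 FPKM, VWF, COL1A2 and PDGFRB stayed under 0.297 FPKM, and COL1A1 lay between 10.2 and 20.05 FPKM. By edgeR's test COL1A1 was at −0.27 (adjusted p = 0.00215) on the log2 scale with EGCG, 0.29 (adjusted p = 7.96e-06) with resveratrol and 0.48 (adjusted p = 2.91e-10) with the combination against control, and its part in the kinesin values was not tested. In every group replicates 1 to 3 had 0.249% to 0.326% of their counts in mitochondrial transcripts and replicates 4 to 6 had 0.448% to 0.775%, and no source names a batch, so values within each set of 3 are given beside the main ones. Bulk RNA cannot tell fewer cells in G2 and M phase from less kinesin RNA in each cell.

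In untreated cells the kinesins differed in level by length-corrected expression. KIF20A led with 39.6 ± 1.74 FPKM (SD, n = 6), followed by KIF2C at 38.4 ± 1.27, KIF11 at 34.5 ± 1.14 and KIF23 at 30.4 ± 1.04 FPKM. KIF18B, KIF4A and KIF14 formed a middle group between 14.5 and 17.0 FPKM. KIF20B at 9.55 ± 0.425, KIF15 at 7.58 ± 0.392 and KIF18A at 7.39 ± 0.578 FPKM were lowest. The ranges of the 6 control libraries overlapped between the neighbours KIF20A and KIF2C, KIF18B and KIF4A, KIF4A and KIF14, and KIF15 and KIF18A, and not between the other neighbours. The order at the top differed in the treated groups. KIF2C led with EGCG at 37.6 ± 1.77 FPKM, overlapping with KIF20A at 36.1 ± 0.883. With resveratrol KIF2C led at 36.7 ± 1.27 FPKM, and KIF20A was in place 3 at 23.8 ± 0.636. With the combination KIF2C led with 34.6 ± 1.95 FPKM, and KIF20A was in place 4 at 17.9 ± 1.29 FPKM, overlapping with KIF23 at 19.4 ± 0.486.

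Most members were lower in cells that received resveratrol, and lowest with the combination. DEGs were genes for which the Benjamini-Hochberg adjusted p of edgeR's quasi-likelihood test over 15476 genes was under 0.1 and the p under 0.05. With EGCG alone 2 of 10 members were lower DEGs (KIF20A and KIF23), against 0.859% of all genes tested, and the median log2 fold change was −0.069. With resveratrol 8 of 10 were lower, against 28% of all genes, with a median of −0.25. With the combination 10 of 10 were lower, against 29.9%, with a median of −0.43. The medians over all genes were 0.00090, 0.0037 and −0.0015 in the same order. No member was a higher DEG in any comparison, where 0.905% (EGCG), 28.9% (resveratrol) and 29.9% (combination) of all genes were higher than control, 4.01% higher with the combination than with resveratrol, 28.7% higher with the combination than with EGCG, 27.7% higher with resveratrol than with EGCG and 0.207% higher by the interaction.

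Set against resveratrol alone, the combination lowered 6 of 10 members (KIF11, KIF18A, KIF20A, KIF20B, KIF23 and KIF4A), against 3.86% of all genes, with a median of −0.20. Set against EGCG alone it lowered 10 of 10, against 29.1%, with a median of −0.35. Resveratrol was lower than EGCG in 7 of 10, against 27.3%, with a median of −0.16. Within replicates 1 to 3 and within replicates 4 to 6 the medians of the combination against control were −0.45 and −0.41, with 10 DEGs in each set. For the combination against resveratrol they were −0.26 with 7 DEGs and −0.14 with 2 DEGs. The shares of all genes called are given for the main fit only. DEG counts within a set, with a library left out or under other processing, here and below, stand without that comparison.

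The counts of members whose 6 libraries in each group did not overlap were taken without a model. In log2 CPM after TMM scaling, 8 of 10 lay fully below control with the combination, against 16.3% of all genes, and 5 of 10 with resveratrol, against 15.8%. With EGCG 0 of 10 did so, against 0.801%. The combination lay fully below resveratrol for 4 of 10 members (KIF11, KIF20A, KIF23 and KIF4A), against 1.4%, and fully below EGCG for 8 of 10, against 14%. Resveratrol lay fully below EGCG for 3 of 10, against 13.6%.

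**Figure D2:**
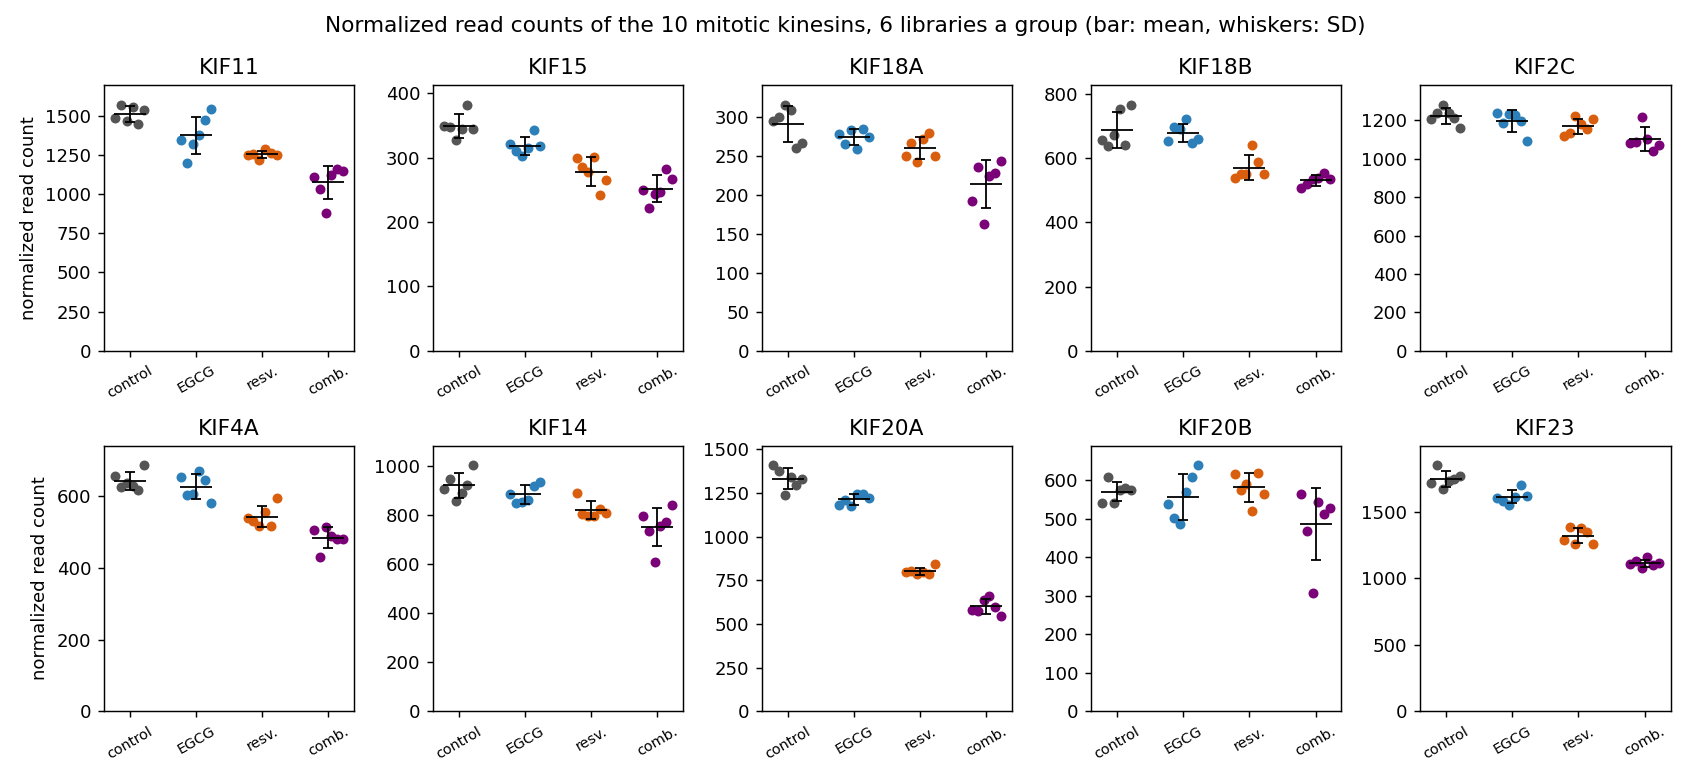
Normalized read counts (y axis, from 0) of the 10 mitotic kinesins in the 6 libraries of each group (x axis; resv. is resveratrol, comb. is the combination), with the mean as a bar and the SD as whiskers. KIF20A goes from 1240.5 to 1407 in control libraries to 546 to 663 with the combination, and the low point of KIF20B with the combination is replicate 3 at 309.

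KIF20A (ENSG00000112984; GRCh38 chr5:138178719-138187723, plus strand) encodes MKLP2, a midzone motor that brings the chromosomal passenger complex from centromeres to the anaphase midzone. Its normalized counts (raw counts scaled by a size factor for each library) ran from 1240.5 to 1407 with a median of 1335 in control and from 1175 to 1245 with a median of 1215 with EGCG. They ran from 784 to 843 with a median of 798 with resveratrol and from 546 to 663 with a median of 591 with the combination. The combination libraries lay below all resveratrol libraries, and these below all EGCG and control libraries, while EGCG and control overlapped.

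KIF20A had the largest change of the 10 members in the 5 comparisons that involve resveratrol. The log2 fold change was −1.14 ± 0.0395 (SE, n = 6 libraries a group, adjusted p = 1.54e-23) with the combination, so that it fell by 54.7% and took place 59 from the lowest of 15476 genes. It was −0.73 ± 0.0381 (SE, n = 6 libraries a group, adjusted p = 5.02e-18) with resveratrol and −0.13 ± 0.0371 (SE, n = 6 libraries a group, adjusted p = 0.066) with EGCG. Between the combination and resveratrol the difference was −0.42 ± 0.0407 (SE, n = 6 libraries a group, adjusted p = 4.98e-09). Within the 2 sets of replicates, that last value came to −0.41 for replicates 1 to 3 and −0.42 for replicates 4 to 6.

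BRD8 and CDC23 overlap KIF20A on the opposite strand, and reads of uncertain strand could be shared. BRD8 averaged 578 and CDC23 531 raw counts per library against 1003.9 for KIF20A, and their log2 fold changes with the combination were −0.13 (adjusted p = 0.0099) and −0.063 (adjusted p = 0.216). The library kit was stranded, and the strand setting of the counting is not given in the sources used here.

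KIF23 (ENSG00000137807; chr15:69414246-69448427, plus strand) encodes MKLP1, which forms centralspindlin with RACGAP1 and marks the site of cleavage. Normalized counts ran from 1671 to 1847 with a median of 1737 in control and from 1552 to 1699 with a median of 1604 with EGCG. With resveratrol they ran from 1258 to 1383 with a median of 1320.2, and with the combination from 1077 to 1159 with a median of 1108. Apart from an overlap of control and EGCG, the groups were separated in the order control and EGCG, resveratrol, combination. The log2 fold change was −0.65 ± 0.033 (SE, n = 6 libraries a group, adjusted p = 1.34e-18) with the combination (it fell by 36.2%), −0.40 ± 0.0324 (SE, n = 6 libraries a group, adjusted p = 7.44e-13) with resveratrol and −0.11 ± 0.0322 (SE, n = 6 libraries a group, adjusted p = 0.0731) with EGCG. The combination differed from resveratrol by −0.25 ± 0.0333 (SE, n = 6 libraries a group, adjusted p = 3.59e-06).

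KIF20B (ENSG00000138182; chr10:89701590-89774939, plus strand), also called MPP1, belongs to the same family and acts late in cytokinesis. Its counts ran from 542 to 609 with a median of 576 in control, 487 to 639 with a median of 554 with EGCG and 520.3 to 620.3 with a median of 584 with resveratrol. With the combination they ran from 309 to 564 with a median of 521, and replicate 3 set the low end while the other 5 libraries lay between 468 and 564. The groups overlapped throughout.

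For KIF20B no change was called with resveratrol, where the log2 fold change was 0.033 (adjusted p = 0.753, 95% interval −0.13 to 0.20). Against control the combination was at −0.23 ± 0.083 (SE, n = 6 libraries a group, adjusted p = 0.0166) and against resveratrol at −0.27 ± 0.0825 (SE, n = 6 libraries a group, adjusted p = 0.0512). Without combination replicate 3 these became −0.12 (adjusted p = 0.0692) and −0.16 (adjusted p = 0.128), and the difference from EGCG went from −0.20 (adjusted p = 0.0409) to −0.091 (adjusted p = 0.19), so that only the call against control remained. The call against resveratrol was also lost without resveratrol replicate 1 or 5 (adjusted p = 0.112 and 0.104), and that against EGCG without EGCG replicate 4, 5 or 6 (adjusted p = 0.098, 0.109 and 0.174, the first with an unadjusted p over 0.05). The value in replicates 4 to 6 alone was −0.13 for the combination against control. Scaled by library size alone, the combination was at −0.15 against control (adjusted p = 0.126) and was not called.

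KIF20A, KIF23 and KIF20B differed in the size of their changes. Over the 24 libraries KIF20A and KIF23 correlated at 0.98 in log2 CPM, and at 0.22 within groups. Because a ratio of raw counts inside a library needs no scaling, log2 ratios of member pairs were also compared. These pairs were chosen after the changes were seen, so the ratios are given as descriptions. A permutation test was run on them, and its p-values are left out for that reason. KIF20A against KIF23 differed from control by −0.33 ± 0.0415 (SE) with resveratrol and by −0.50 ± 0.0482 (SE) with the combination, each with no overlap to control, and by −0.018 ± 0.0267 (SE) with EGCG. Between the combination and resveratrol the difference was −0.17 ± 0.0542 (SE), with overlap.

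KIF20A against KIF20B differed from control by −0.76 ± 0.0565 (SE) with resveratrol and by −0.90 ± 0.156 (SE) with the combination, with no overlap in either. KIF23 against KIF20B differed by −0.43 ± 0.0539 (SE) with resveratrol, with no overlap, and by −0.40 ± 0.124 (SE) with the combination, with overlap. Between the combination and resveratrol, KIF20A against KIF20B was at −0.14 ± 0.159 (SE), and at −0.28 without combination replicate 3. Its value was 0.047 for replicates 1 to 3 and −0.33 for replicates 4 to 6.

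KIF11 (ENSG00000138160; chr10:92574105-92655395, plus strand) encodes Eg5, the tetrameric motor that slides antiparallel microtubules and pushes the spindle poles apart. Its counts ran from 1451 to 1572 with a median of 1511 in control and 1201 to 1541 with a median of 1362 with EGCG. They ran from 1220.4 to 1288 with a median of 1252 with resveratrol and 877 to 1160.3 with a median of 1118 with the combination. Resveratrol lay fully below control and the combination fully below resveratrol. The log2 fold change was −0.27 ± 0.0494 (SE, n = 6 libraries a group, adjusted p = 2.42e-05) with resveratrol and −0.49 ± 0.0502 (SE, n = 6 libraries a group, adjusted p = 1.7e-10) with the combination, where it fell by 28.9%. The combination differed from resveratrol by −0.23 (adjusted p = 0.00449), and by −0.17 (adjusted p = 0.0124) without combination replicate 3. This difference was −0.31 for replicates 1 to 3, where it was called, and −0.15 for replicates 4 to 6, where it was not.

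KIF15 (ENSG00000163808; chr3:44761721-44873376, plus strand) is a plus-end motor that keeps the poles apart once the spindle has formed. For this gene the counts ran from 328 to 382 with a median of 346 in control, 302 to 344 with a median of 316 with EGCG, 243 to 301 with a median of 282 with resveratrol and 223 to 282 with a median of 248 with the combination. Resveratrol and the combination both lay below control and overlapped each other. The log2 fold changes against control were −0.32 (adjusted p = 6.68e-06) and −0.47 (adjusted p = 6.99e-09), and the difference between combination and resveratrol, −0.15 (adjusted p = 0.143), did not pass the test. It was called without resveratrol replicate 5 (−0.18, adjusted p = 0.0577) and without combination replicate 5 (−0.18, adjusted p = 0.0715). The same difference was −0.27 for replicates 1 to 3, where it was called, and −0.026 for replicates 4 to 6, where it was not. TMEM42, on the same strand inside this region, averaged 79.1 raw counts against 304.6 for KIF15.

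The log2 ratio of KIF11 to KIF15, the pair that drives pole separation, overlapped between the groups in all 6 comparisons. It stood at 0.060 ± 0.0625 (SE) from control with resveratrol and at −0.025 ± 0.0684 (SE) with the combination.

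KIF18A (ENSG00000121621; chr11:28020619-28108156, minus strand) dampens microtubule plus ends at kinetochores and so limits chromosome oscillation. Its counts ran from 259.8 to 316 with a median of 298 in control and 258 to 284 with a median of 276 with EGCG. They ran from 243 to 279 with a median of 259 with resveratrol and 162 to 244 with a median of 226 with the combination. All combination libraries lay below the control and EGCG libraries, and overlapped with the resveratrol libraries. The log2 change was −0.16 (adjusted p = 0.0423) with resveratrol and −0.45 (adjusted p = 1.09e-06) with the combination, and −0.29 (adjusted p = 0.0102) between these groups. For the combination against control it was, in replicates 1 to 3 and 4 to 6, −0.63 and −0.26, and replicate 3 of the combination was the lowest library at 162. With resveratrol it was −0.25 and −0.060 in the same sets, called in the former only, and the call over all libraries was lost without control replicate 3 (−0.14, adjusted p = 0.105), without resveratrol replicate 3 (−0.14, adjusted p = 0.0951, with an unadjusted p over 0.05) and with scaling by library size alone (−0.071, adjusted p = 0.386). Without combination replicate 3 the difference between combination and resveratrol was −0.21 (adjusted p = 0.0368). It was −0.38 for replicates 1 to 3, where it was called, and −0.20 for replicates 4 to 6, where it was not.

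KIF18B (ENSG00000186185; chr17:44924709-44947773, minus strand) shortens astral microtubules. The normalized counts ran from 638 to 767 with a median of 666 in control and 649 to 722 with a median of 675 with EGCG, and from 539 to 642 with a median of 553 with resveratrol and 506 to 555 with a median of 535 with the combination. The combination lay below control and EGCG in full, and resveratrol overlapped control by its replicate 4 at 642. Its log2 fold change was −0.27 (adjusted p = 1.03e-05) with resveratrol and −0.37 (adjusted p = 3.69e-08) with the combination, whereas the difference between these groups, −0.10 (adjusted p = 0.265), did not pass. The log2 ratio of KIF18A to KIF18B was at −0.083 ± 0.112 (SE) from control with the combination, with −0.31 for replicates 1 to 3, 0.14 for replicates 4 to 6 and −0.0037 without combination replicate 3. Between the combination and resveratrol it was at −0.19 ± 0.0937 (SE), and at −0.11 without combination replicate 3. Between resveratrol and EGCG it was at 0.18 ± 0.0538 (SE), with 0.19 for replicates 1 to 3 and 0.16 for replicates 4 to 6. The groups overlapped in all 3.

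KIF2C (ENSG00000142945; chr1:44739818-44767767, plus strand) encodes MCAK, which takes microtubule ends apart and corrects faulty kinetochore attachments. It changed least of the 10 members with the combination. Counts ran from 1161 to 1282 with a median of 1225 in control and 1090.3 to 1239 with a median of 1212 with EGCG. They ran from 1118 to 1221 with a median of 1168 with resveratrol and 1038 to 1219 with a median of 1086 with the combination. All groups overlapped, and combination replicate 3, the highest of its group at 1219, lay among the control libraries. The log2 fold change was −0.061 with resveratrol (adjusted p = 0.172, 95% interval −0.14 to 0.017) and −0.15 ± 0.0373 (SE, n = 6 libraries a group, adjusted p = 0.00112) with the combination, where it fell by 9.63%. With libraries scaled by their size alone the latter was −0.063 (adjusted p = 0.152) and was not called. Between the combination and resveratrol it was −0.085 (adjusted p = 0.207), and −0.12 (adjusted p = 0.0361) without combination replicate 3.

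KIF4A (ENSG00000090889; chrX:70290104-70420886, plus strand) is a chromokinesin that, with PRC1, sets the length of the midzone. Counts of KIF4A ran from 616 to 685 with a median of 631 in control and 579 to 668 with a median of 624 with EGCG, and from 515 to 593 with a median of 534 with resveratrol and 430.3 to 512 with a median of 485 with the combination. Resveratrol lay fully below control, and the combination fully below resveratrol. On the log2 scale the change was −0.24 (adjusted p = 1.74e-05) with resveratrol, −0.40 (adjusted p = 1.19e-09) with the combination and −0.16 (adjusted p = 0.0264) between these groups. That last value was −0.13 for replicates 1 to 3 and −0.20 for replicates 4 to 6, and was called in neither set. KIF4B, a near-identical copy whose reads cannot be told apart with certainty, had 26 to 71 raw counts per library against a mean of 582 for KIF4A. PDZD11, which overlaps KIF4A on the opposite strand, averaged 329 raw counts and went the other way with the combination, at 0.24 (adjusted p = 0.000658).

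KIF14 (ENSG00000118193; chr1:200551497-200620751, minus strand) recruits citron kinase to the midbody with PRC1. Counts of KIF14 ran from 857 to 1004 with a median of 915 in control and 849.9 to 937 with a median of 874 with EGCG. They ran from 796 to 893 with a median of 807 with resveratrol and 611 to 841 with a median of 764 with the combination. The combination lay below control and EGCG in full, and resveratrol overlapped control by replicate 1 at 893. Against control the log2 fold change was −0.16 (adjusted p = 0.00569) with resveratrol and −0.29 (adjusted p = 5.73e-06) with the combination, and −0.13 (adjusted p = 0.145) between these groups, which did not pass the test. That last value was −0.23 for replicates 1 to 3, where it was called, and −0.036 for replicates 4 to 6. It was −0.074 (adjusted p = 0.414) without combination replicate 3 and −0.16 (adjusted p = 0.0572, called) without combination replicate 6. The resveratrol value was −0.11 (adjusted p = 0.202) in replicates 1 to 3 and −0.075 (adjusted p = 0.212) with scaling by library size alone, and was called in neither.

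**Figure D3:**
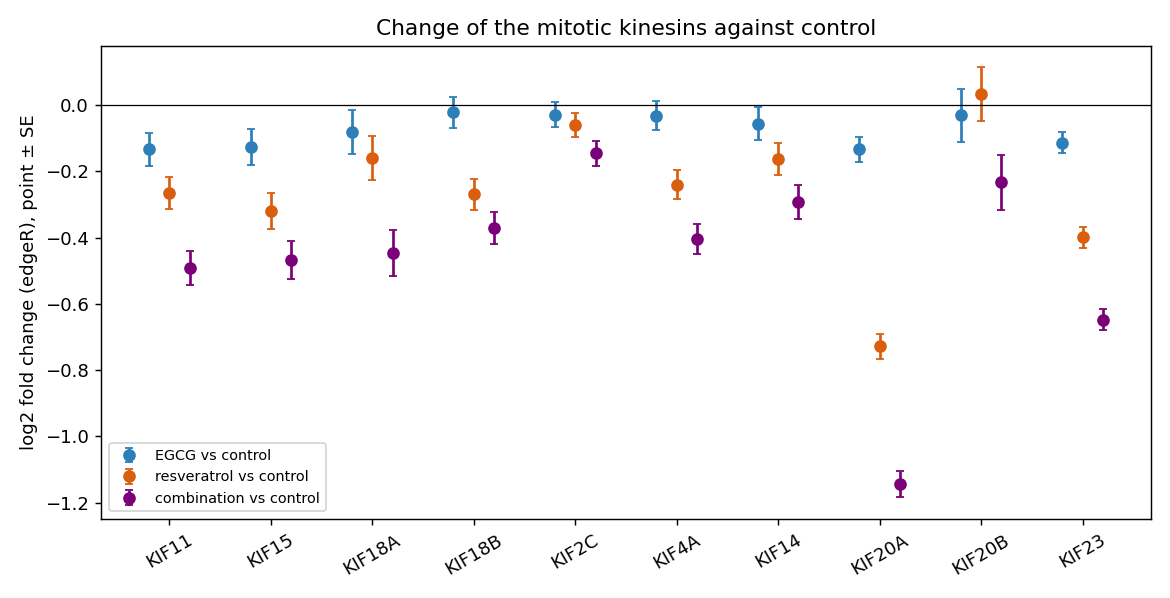
Log2 fold change against control (y axis; edgeR, point ± SE, 6 libraries a group) of the 10 members with EGCG, resveratrol and the combination. KIF20A reaches −1.14 and KIF2C −0.15 with the combination, and KIF20B lies at 0.033 with resveratrol.

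EGCG alone left small differences. KIF20A (−0.13) and KIF23 (−0.11) were called, KIF11 had a value of −0.13 (adjusted p = 0.254) and KIF15 of −0.13 (adjusted p = 0.362). The other 6 lay between −0.082 and −0.022 with adjusted p from 0.736 to 0.948. All 10 values were below 0, where 49.5% of all genes were. So were 19 of 20 G2 and M phase markers, with a median of −0.077, and 19 of 20 spindle and midzone partners. Of 19 S phase markers 8 were. The members' median was −0.13 within replicates 1 to 3 and −0.050 within replicates 4 to 6, with 0 DEGs by edgeR in either set alone, where 3 and 2 members had an unadjusted p under 0.05. The 2 calls were also lost at an adjusted p under 0.05. That of KIF20A was lost without any 1 of control replicates 1, 2, 4 and 6 and EGCG replicates 1, 2 and 3 (adjusted p up to 0.191), and that of KIF23 without any 1 of control replicates 2, 4, 5 and 6 and EGCG replicates 1, 2, 3 and 4 (up to 0.222).

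The interaction, the combination's log2 fold change less the sum of both single agents', was tested in the same edgeR fit. It was below 0 for 10 of 10 members, where 51.8% of all genes were, and the median was −0.11. Companion lists of mitotic genes shared this sign. It was below 0 for 19 of 20 G2 and M phase markers, with a median of −0.13. The same held for 15 of 20 spindle and midzone partners, and for 8 of 19 S phase markers. Among the members only KIF20A passed the test, with −0.28 ± 0.0551 (SE, adjusted p = 0.00958). That is 1 of 10, against 0.0582% of all genes in this direction. For KIF20A the single agents summed to −0.86 and the combination reached −1.14, so that it fell by 17.8% beyond that sum. Within the 2 sets of replicates, the interaction came to −0.24 for replicates 1 to 3 and −0.33 for replicates 4 to 6, and it was called in the latter set only.

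KIF23 (−0.13), KIF18A (−0.21) and KIF4A (−0.13) had an unadjusted edgeR p under 0.05 and adjusted p of 0.4, 0.624 and 0.633. In all, 4 members and 1195 of 15476 genes were under that unadjusted limit. KIF20B was at −0.23 ± 0.12 (adjusted p = 0.649) and at −0.12 without combination replicate 3. The remaining 5 lay between −0.093 and −0.022. Without combination replicate 3, KIF18A went to −0.13 (adjusted p = 0.757) and was no longer under the unadjusted limit, KIF11 went from −0.093 to −0.039 and KIF14 from −0.073 to −0.018.

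**Figure D4:**
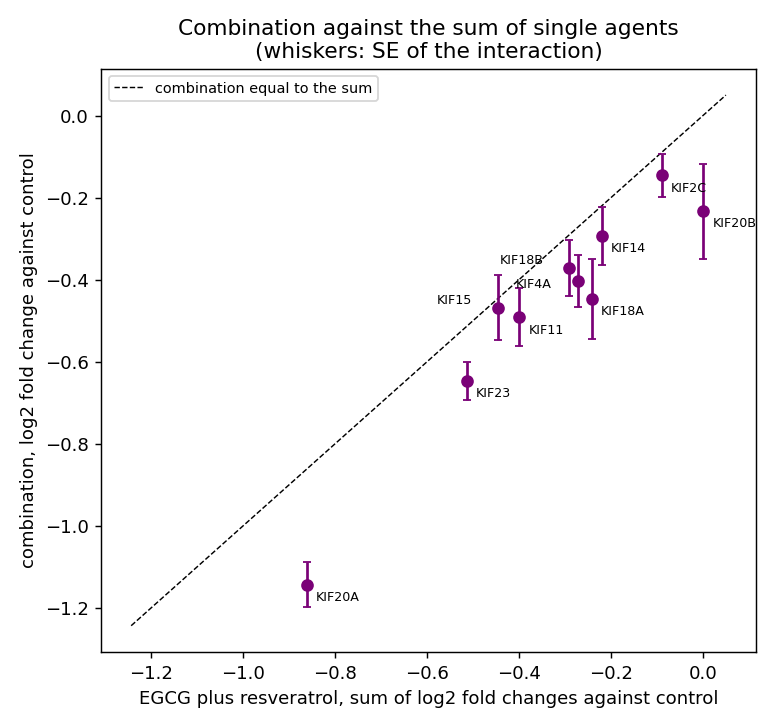
Combination log2 fold change against control (y axis) plotted against the sum of the EGCG and resveratrol log2 fold changes (x axis), 1 point a member, with the SE of the interaction as whiskers and the line of equality dashed. All 10 points lie below the line, and KIF20A, at −0.86 and −1.14, lies farthest from it.

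Across the 24 libraries, correlations of log2 CPM between the 45 pairs of members ran from −0.092 to 0.98 with a median of 0.75. Within groups, after each group's mean was removed, they ran from −0.80 to 0.84 with a median of 0.061. The genes outside the list most like the members' mean, by Pearson's r over 24 libraries, were TOP2A (0.987), CENPE (0.976), NAA15 (0.974), LRPPRC (0.973) and GFM1 (0.968). Within groups the same 5 had r from 0.542 (GFM1) to 0.932 (CENPE). TOP2A (topoisomerase II alpha) and CENPE (a kinetochore kinesin) act in mitosis, while NAA15 belongs to an acetyltransferase complex and LRPPRC and GFM1 serve mitochondrial mRNA and translation. With the combination they changed by −0.66, −0.81, −0.58, −0.46 and −0.45 in the same order, which the choice by likeness largely fixed. These libraries share their groups and depth, so the correlations are descriptions.

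Motors with other mitotic roles were measured for comparison, and 6 of 7 were tested. All values in the following comparisons of companion genes are log2 fold changes by edgeR. The counts are to be read against 29.9% of all genes higher and 29.9% lower with the combination. Between it and resveratrol 4.01% were higher and 3.86% lower. With EGCG 0.905% were higher and 0.859% lower, and by the interaction 0.207% and 0.0582%. With the combination 5 were lower and DYNC1H1 (cytoplasmic dynein, picked out after its value was seen) was higher. DYNC1H1 was at 0.37 (adjusted p = 0.000173), and its libraries overlapped those of control. The 5 include KIF4B, at −0.37 (adjusted p = 0.0193), whose reads may be shared with the member KIF4A. CENPE was at −0.81 (adjusted p = 1.37e-12), KIFC1, a minus-end motor that focuses poles, at −0.40 (adjusted p = 4.95e-11), and KIF22, a chromokinesin, at −0.33 (adjusted p = 3.57e-09). Against resveratrol CENPE alone passed, at −0.29 (adjusted p = 0.00905), and 2 motors passed without any 1 of resveratrol replicates 1 and 6 and combination replicate 2.

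Kinesins of interphase transport were counted in the same way. Of 32 such genes, 25 were tested, and with the combination 9 were higher and 3 lower, against 29.9% of all genes in each direction, with a median of 0.091. With resveratrol 11 were higher and 4 lower, against 28.9% and 28%, with a median of 0.11. By edgeR 0 of 25 were called with EGCG and 0 of 25 between the combination and resveratrol, and by DESeq2 likewise 0 in each, with 1 gene at an unadjusted p under 0.05 in each. KIF5B, the heavy chain of conventional kinesin, was at −0.13 (adjusted p = 0.00505) with the combination, and KIF3A, a motor of cilia and axonal transport, at 0.098 (adjusted p = 0.232).

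Partners of the mitotic kinesins were mostly lower. Of 20 partners in the spindle and midzone, 17 were lower and KIFBP was higher with the combination, with a median of −0.48. TPX2, a partner of KIF11 and KIF15, was at −0.51 (adjusted p = 6.58e-18), and DLGAP5 (HURP), which stabilizes kinetochore fibres, at −0.68 (adjusted p = 2.18e-14). PRC1, the midzone bundler that binds KIF4A and KIF14, was at −0.69 (adjusted p = 4.24e-11). RACGAP1, the centralspindlin partner of KIF23, was at −0.48 (adjusted p = 3.03e-15), and CIT, citron kinase, at −0.38 (adjusted p = 3.84e-08). MAPRE1 (EB1), a plus-end tracker, was at −0.14 (adjusted p = 0.000234).

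KIFBP, which binds the motor domains of some kinesins and keeps them off microtubules, was higher with resveratrol, at 0.32 (adjusted p = 3.63e-07), and with the combination, at 0.31 (adjusted p = 7.49e-07). Against resveratrol the combination lowered 11 of the 20 partners, among them DLGAP5 at −0.32 (adjusted p = 3.25e-05) and TPX2 at −0.15 (adjusted p = 0.000358). With EGCG 3 of the 20 were lower, against 0.859% of all genes. They were KNSTRN, AURKA and TPX2, of which KNSTRN and AURKA were picked out after their values were seen. That count was 0 without any 1 of control replicate 3 and EGCG replicates 3 and 4, and 1 without any 1 of control replicates 1, 2, 4 and 5, EGCG replicates 1, 2 and 6, resveratrol replicate 1 and combination replicate 5. AURKA, a kinase of the spindle poles, was the 1 partner with a called interaction, at −0.25 (adjusted p = 0.0044).

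Tubulins form the track of these motors. Of 14, 7 were higher and 5 lower with the combination, against 29.9% of all genes in each direction, with a median of 0.027, and TUBA1B and TUBB, major tubulins of dividing cells, were at −0.29 (adjusted p = 1.77e-10) and −0.23 (adjusted p = 6.78e-11). Against resveratrol 1 passed (TUBG1, at 0.098, picked out after its value was seen), and this call was lost without any 1 of resveratrol replicates 1, 5 and 6 and combination replicate 3.

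The phase markers set the kinesins in context. Of 20 G2 and M phase markers, 20 were lower with the combination, with a median of −0.54, and 15 were lower than with resveratrol. CCNB1, the mitotic cyclin, was at −0.89 (adjusted p = 7.4e-22) against control and −0.30 (adjusted p = 3.31e-07) against resveratrol, and MKI67, the proliferation antigen Ki-67, at −0.53 (adjusted p = 1.83e-08) and −0.10 (adjusted p = 0.433). Of 19 S phase markers 12 were lower and 6 higher with the combination, with a median of −0.19, and between the combination and resveratrol 2 passed, both higher (CDC6 and RRM2, picked out after their values were seen). This count was 1 without any 1 of resveratrol replicates 3, 5 and 6 and combination replicates 1, 2, 5 and 6, and 4 without combination replicate 4. MCM2, a helicase subunit, was at −0.24 (adjusted p = 9.25e-09) and PCNA, the sliding clamp, at −0.33 (adjusted p = 6.31e-10) against control.

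Regulators of mitotic genes were counted last. Of 23, 11 were lower and 6 higher with the combination, against 29.9% of all genes in each direction, with a median of −0.069. FOXM1, an activator of G2 and M phase genes, was at −0.077 (adjusted p = 0.0442) and reached 0.0054 when libraries were scaled by their size alone. Its call was lost without any 1 of control replicates 1 and 2, EGCG replicates 1, 2, 4 and 6 and combination replicates 1 and 6. MYBL2, which joins the MMB complex, was at 0.11 (adjusted p = 0.00687) against control and 0.16 (adjusted p = 0.00215) against resveratrol. E2F4, the E2F of the DREAM complex, was at −0.27 (adjusted p = 7.12e-08), and LIN54, the subunit that binds the CHR, at 0.21 (adjusted p = 0.00551). CDKN1A, the p21 inhibitor of cyclin-dependent kinases, was at 1.11 (adjusted p = 3.67e-22) with resveratrol and 1.36 (adjusted p = 4.34e-25) with the combination, and 0.25 (adjusted p = 5.79e-05) between them. The part of any of these in the kinesin changes was not tested.

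**Figure D5:**
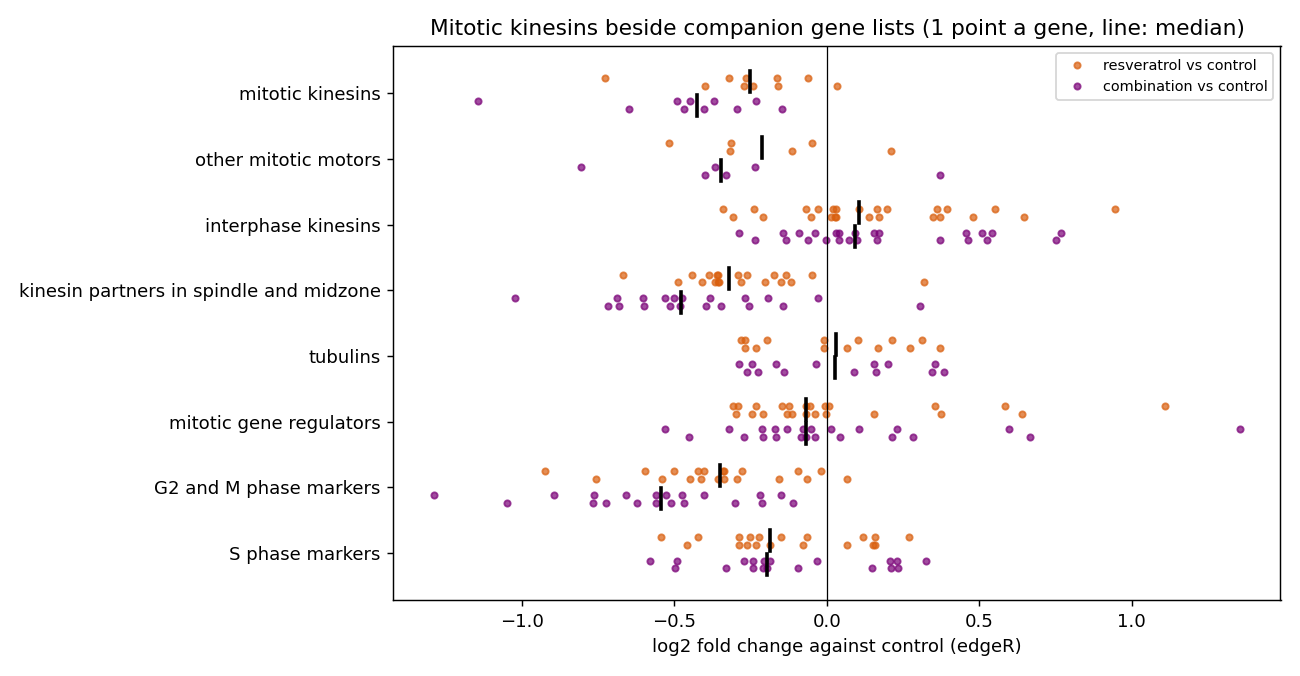
Log2 fold change against control (x axis; edgeR) of each tested gene in 8 lists (rows), 1 point a gene, for resveratrol (orange) and the combination (purple), with the median as a line. The medians of the mitotic kinesins are −0.25 and −0.43, and those of the interphase kinesins are 0.11 and 0.091.

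The members together took 0.1005% to 0.106% of all counts in control libraries and 0.0735% to 0.0809% with the combination. Their mean log2 CPM ran from 6.49 to 6.55 in control, 6.40 to 6.50 with EGCG, 6.24 to 6.30 with resveratrol and 5.93 to 6.12 with the combination. The groups overlapped on this scale between control and EGCG only. Replicate 3 of the combination was the lowest library of its group for 5 members (KIF11, KIF14, KIF18A, KIF20B and KIF23) and the highest for 2 (KIF2C and KIF4A). Without it, 10 members were called for the combination against control, 6 against resveratrol, 9 against EGCG and 1 for the interaction. The shares of all genes called without it are not given.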

How the data were processed

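RNASeq was performed on 24 libraries of MDA686TU cells, 6 in each of 4 groups. The authors made stranded mRNA libraries, removed adapters with Trimmomatic 0.36 and used HISAT2 2.0.4 (GRCh38) and SAMtools 1.3.1 for alignment and sorting. The counting program, its strand setting and the annotation release are not given in the sources used here. The authors deposited raw counts per gene, normalized counts (a signal, in which each library's counts are scaled by its size factor) and FPKM values (the normalized counts divided by a length per gene). Groups were taken from the sample labels.

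The fit used edgeR 4.0.16 (R 4.3.3) on the raw counts of all 24 libraries, with TMM scaling, filterByExpr and the quasi-likelihood test, and p-values were adjusted over 15476 genes. DEGs had an adjusted p under 0.1 and p under 0.05, the limits of the study's methods. Correlations used log2 CPM with a prior count of 2. On simulated data for resveratrol against control 15330 genes were tested. There edgeR called 82 of 100 genes changed 1.5-fold and 95 of 100 changed 2-fold, with 24 false calls. Changes under 1.5-fold, which most members had, were not simulated. Far fewer genes were changed in the simulation than were called in the data. Levels are given as the deposited normalized counts, and FPKM was used to compare genes. Total counts set the precision, and the 95% intervals are those of the estimated log2 fold change, from its SE with 20 degrees of freedom. Log2 ratios of the raw counts of member pairs are given as descriptions. RefSeq promoters and GENCODE positions came from the reference tables, and 10 of 10 members matched.

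The members, the companion lists and the alternatives were chosen with earlier results of these data known. The text names all members, companion genes chosen by role, the 5 genes most like the members' mean, and a few others that are marked as picked out after their values were seen. The alternatives were the DESeq2 1.42.0 Wald test, scaling by DESeq2 size factors or by library size alone, 2 other filters (at least 1 count in all, or at least 10 counts in every library), a stricter adjusted p of 0.05, only the groups compared, a replicate block, the 2 sets of replicates as a term or alone, and each library left out in turn. Only the RNASeq files were analysed here.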

Additional observations from a re-analysis of the deposited data

Results flagged for a closer look

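In 44 groups of 6 libraries checked for a single library far from the others, 5 had one, and chance alone gives about 1 in 20. With resveratrol, KIF14 had 893 normalized counts in replicate 1 against 796 to 826 in the others, and KIF20A had 843 in replicate 6 against 784 to 802. With EGCG, KIF2C had 1090.3 in replicate 6 against 1186 to 1239. With the combination, replicate 3 held 309 normalized counts of KIF20B against 468 to 564 in the others, and 1219 of KIF2C against 1038 to 1105.

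The effect of EGCG differed between cells with and without resveratrol by the interaction test of edgeR for KIF20A, at −0.28 (adjusted p = 0.00958). Among the companion genes it did so for TOP2A, at −0.24 (adjusted p = 0.0591), for AURKA, at −0.25 (adjusted p = 0.0044), and for COL1A1, a collagen gene on the list of other cell types, at 0.46 (adjusted p = 0.000787). The TOP2A call was lost without any 1 of control replicates 1, 2 and 3, EGCG replicates 4, 5 and 6, resveratrol replicates 1 and 6 and combination replicate 2 (adjusted p from 0.1 to 0.149), and within either set of 3 replicates. The call of KIF20A and that of AURKA were lost within replicates 1 to 3. COL1A1 also changed with EGCG (−0.27, adjusted p = 0.00215), with resveratrol (0.29, adjusted p = 7.96e-06) and with the combination (0.48, adjusted p = 2.91e-10).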

How the results depend on the processing

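Of the 10 members, all stayed lower DEGs with the combination with each library left out in turn (10 to 10) and under each other alternative except library size alone, which called 8, without KIF20B (−0.15, adjusted p = 0.126) and KIF2C (−0.063, adjusted p = 0.152). Counts that moved by over 1.5 times were those of EGCG against control (2), which became 1 with library size alone, 1 with every gene of at least 1 count, 0 at an adjusted p under 0.05, 0 in replicates 1 to 3 and 0 in replicates 4 to 6. The combination against resveratrol (6) became 2 in replicates 4 to 6, resveratrol against EGCG (7) became 4 with library size alone and 4 in replicates 1 to 3, and the interaction (1) became 0 in replicates 1 to 3. Replicates 1 to 3 and 4 to 6 hold fewer libraries than the whole, and the cause of the other moves was not tested. With 1 library left out the counts ran from 0 to 3 for EGCG, 7 to 8 for resveratrol, 5 to 7 for the combination against resveratrol, 9 to 10 against EGCG, 5 to 7 for resveratrol against EGCG and 1 to 1 for the interaction. Counts over the companion lists moved by over 1.5 times in 41 of the values with 1 library left out and in 49 under the other alternatives. Some signs turned. With library size alone, which moved the median of all genes by at most 0.092, these were KIF2C with resveratrol (0.027) and for resveratrol against EGCG (0.050), KIF18A for resveratrol against EGCG (0.0030), and with resveratrol KIF5B (0.037), FOXM1 (0.020) and MYBL2 (0.034), and FOXM1 with the combination (0.0054). In replicates 1 to 3 they were KIF18B with EGCG (0.055), KIF5B with resveratrol (0.0017) and KIF3A with the combination (−0.013). In replicates 4 to 6 they were KIF20B with EGCG (0.071), with resveratrol (−0.023) and for resveratrol against EGCG (−0.094), KIF2C for resveratrol against EGCG (0.011), FOXM1 (0.0011) and MYBL2 (0.024) with resveratrol, and the interactions of KIF14 (0.014) and KIF15 (0.095). With 1 library left out, KIF18B with EGCG ran from −0.043 to 0.013, KIF20B with EGCG from −0.073 to 0.0050 and the KIF15 interaction from −0.057 to 0.011. Leaving out libraries was added for the log2 ratios after seeing the data: KIF20A to KIF23 with EGCG ran from −0.026 to 0.0037, KIF11 to KIF15 from −0.044 to 0.025 with EGCG and −0.063 to 0.024 with the combination, and KIF23 to KIF20B between combination and resveratrol from −0.083 to 0.084. Whether the replicate numbers pair the libraries is not given in the sources used here, and the deviations do not settle it. Same-numbered libraries of different groups correlated at −0.019 to 0.20 in their deviations, with a median of 0.068, and over 0.1 in 11 of 36 pairs. Other-numbered pairs had a median of 0.040 (14 of 72 over 0.1) within a set of 3 replicates and −0.058 (2 of 108) across the sets. Of 24 libraries, 10 correlated best with their own number. With the replicate block the members called were 3 with EGCG (KIF11 added, at −0.14, adjusted p = 0.082), 8 with resveratrol, 10 with the combination, 7 for the combination against resveratrol (KIF14 added, at −0.13, adjusted p = 0.0362), 10 against EGCG, 7 for resveratrol against EGCG and 1 for the interaction. At these depths the smallest member had 162 normalized counts in its lowest library, and differences under about 0.1 on the log2 scale were mostly not called.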
